A study of Mus musculus with 12 samples.

Results

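The genes described here are 10 genes of the pathway that loads peptides onto MHC class I molecules and carries them to the cell surface: H2-K1, H2-D1, H2-T23, B2m, Tap1, Tap2, Tapbp, Psmb8, Psmb9 and Nlrc5. They were chosen by symbol, with earlier results of these data known, and all 10 were found among 55487 distinct gene identifiers. RNA-seq was done on 12 libraries, 4 cell populations sorted from tumours of each of 3 mice (mouse 27, 30 and 31). All mice were 10-week-old, untreated FVB animals carrying MMTV-PyMT, a transgene that expresses the polyoma virus middle T protein from the mouse mammary tumour virus promoter, which is active in mammary epithelial cells. The sorted cells were stroma of these tumours, cancer-associated fibroblasts (CAFs), and every population was gated as live cells with PDGFRb on their surface and without CD45, EPCAM or CD31. The icaf population was Ly6C+. The m2cafneg and m2cafpos populations were both Ly6C-, CD146- and PDGFRa+, and differed in NCAM, which was absent from m2cafneg and present on m2cafpos. The vcaf population was Ly6C-, CD146+ and PDGFRa-. There was no normal tissue or other genotype among the libraries, so each comparison is between populations of the same tumours.

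MHC class I molecules display peptides from proteins made inside the cell to CD8 T cells, and inhibit natural killer cells that recognise them. The proteasome cuts proteins into peptides, the Tap1-Tap2 transporter moves the peptides into the endoplasmic reticulum, and tapasin (Tapbp) holds an empty heavy chain with its light chain B2m beside the transporter until a peptide is bound. Interferon raises most of these genes in many cell types, through the transactivator Nlrc5, interferon regulatory factors and NF-kB, and tumour fibroblasts are known to present antigen by this route.

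In the mm10 assembly (GRCm38, GENCODE M21 coordinates), 8 of the 10 genes lie on chromosome 17, in or near the mouse MHC. The heavy-chain genes are H2-K1 (ENSMUSG00000061232, 33996017 to 34000347), H2-D1 (ENSMUSG00000073411, 35262730 to 35267499) and H2-T23 (ENSMUSG00000067212, 36029773 to 36032855). Tapbp (ENSMUSG00000024308) spans 33915899 to 33929292. Psmb9 (ENSMUSG00000096727, 34181987 to 34187764), Tap1 (ENSMUSG00000037321, 34187553 to 34197225), Psmb8 (ENSMUSG00000024338, 34197721 to 34201454) and Tap2 (ENSMUSG00000024339, 34203527 to 34216321) are a cluster of 4 genes within 34335 bases. The starts of Tap1 and Psmb9 are 211 bases apart on opposite strands and the gene bodies overlap there; whether counting used strand is not given in the sources used here, so reads in the overlap cannot be told apart. B2m (ENSMUSG00000060802) lies on chromosome 2 at 122147686 to 122153083, and Nlrc5 (ENSMUSG00000074151) on chromosome 8 at 94434356 to 94527272.

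RefSeq promoter entries (GRCm38.p6) matched 8 of the 10 genes, and Tap2 and Nlrc5 had none in the table. The 250 bases before each RefSeq start were searched on both strands for 4 short motifs, and overlapping matches of different motifs were allowed. The motifs were an interferon regulatory factor core (AANNGAAA), an NF-kB site, a cyclic AMP response element half-site (TGACG) and a CCAAT box (CCAAT). Of 27025 RefSeq promoters, 21.6%, 17.3%, 17.9% and 34.5% held them, in that order. The following 5 sequences are shown because H2-K1, H2-D1 and B2m, 2 heavy chains and their light chain, each hold all 4 motifs, while Tap1 and Tapbp hold fewer. Whether motif content goes with the differences between populations was not tested. Capitals mark the motif matches, and each sequence reads 5′ to 3′ on the gene's own strand.
H2-K1 (chr17:34000348-34000597, minus strand): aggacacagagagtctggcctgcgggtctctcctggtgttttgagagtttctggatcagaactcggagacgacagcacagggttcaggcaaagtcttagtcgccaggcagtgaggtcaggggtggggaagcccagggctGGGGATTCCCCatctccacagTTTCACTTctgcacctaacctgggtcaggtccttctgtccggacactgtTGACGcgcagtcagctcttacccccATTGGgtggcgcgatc
H2-D1 (chr17:35262844-35263093, plus strand): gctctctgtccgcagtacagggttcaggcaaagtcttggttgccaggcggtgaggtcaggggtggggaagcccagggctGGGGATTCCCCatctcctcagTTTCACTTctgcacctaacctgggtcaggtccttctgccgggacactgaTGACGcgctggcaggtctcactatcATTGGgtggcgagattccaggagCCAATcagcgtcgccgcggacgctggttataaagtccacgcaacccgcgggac
B2m (chr2:122147437-122147686, plus strand): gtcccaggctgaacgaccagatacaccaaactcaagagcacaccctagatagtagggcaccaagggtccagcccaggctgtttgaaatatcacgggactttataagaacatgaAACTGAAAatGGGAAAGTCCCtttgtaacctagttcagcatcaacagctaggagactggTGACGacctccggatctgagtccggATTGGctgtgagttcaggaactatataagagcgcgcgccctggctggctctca
Tap1 (chr17:34187306-34187555, plus strand): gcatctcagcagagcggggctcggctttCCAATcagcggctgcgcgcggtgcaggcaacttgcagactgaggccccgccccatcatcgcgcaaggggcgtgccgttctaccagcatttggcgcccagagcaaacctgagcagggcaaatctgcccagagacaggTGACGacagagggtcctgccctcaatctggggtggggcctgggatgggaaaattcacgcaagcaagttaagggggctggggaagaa
Tapbp (chr17:33919228-33919477, plus strand): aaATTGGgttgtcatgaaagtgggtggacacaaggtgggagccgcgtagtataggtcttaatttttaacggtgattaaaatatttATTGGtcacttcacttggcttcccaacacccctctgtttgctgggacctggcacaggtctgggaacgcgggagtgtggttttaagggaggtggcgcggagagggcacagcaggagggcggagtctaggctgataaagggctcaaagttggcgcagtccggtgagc
In H2-K1 and H2-D1 the order is the same, the NF-kB match first, then the interferon core on the other strand, the TGACG and the CCAAT box nearest the start. The B2m window has the interferon core before the NF-kB match, and the other motifs in the same order. The Tap1 window holds a CCAAT box and a TGACG but no match to the interferon core or the NF-kB letters, and the Tapbp window holds 2 CCAAT boxes alone. Over the 8 promoters the interferon core was in 4, the NF-kB site in 3, the TGACG in 5 and CCAAT in 7, and Psmb8 held none of the 4 motifs. The RefSeq starts of Tap1 and Psmb9 are 226 bases apart and their windows share 225 bases, so both genes read largely the same stretch from opposite strands. The windows of Tapbp, Psmb8, H2-D1 and Psmb9 lie inside the GENCODE gene spans given above. For these genes the bases before the GENCODE start were not searched. A match is a description of these letters and not of bound sites.

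Values are CPM, a gene's reads relative to all reads assigned to genes in its library. The libraries held between 43898839 and 55363203 reads, so 1 read was worth 0.0181 to 0.0228 CPM. The 9 fibroblast markers summed to 78547 CPM in icaf, 86771 in m2cafneg and 152016 in m2cafpos but to 11629 in vcaf, whereas the 10 pericyte markers summed to 47688 CPM in vcaf and to 420 to 995 CPM elsewhere. Genes of gated-out cells were present in unequal amounts. The 15 epithelial markers summed to means of 1839 CPM in icaf (library range 1078 to 3132) and 1928 in m2cafpos (691 to 3224), against 8989 in m2cafneg (5728 to 13219) and 11726 in vcaf (8137 to 17503). The 15 macrophage and monocyte markers gave means of 157 (98.5 to 222), 187 (158 to 241), 794 (624 to 1004) and 1085 CPM (579 to 1376) in icaf, m2cafpos, m2cafneg and vcaf. Much of each sum was 1 gene, Cd14, at means of 88.3, 106, 504 and 750 CPM in the same order. The macrophage covariate used below is the log2 of this sum. Of the 14 tested markers 0 were called between m2cafneg and vcaf in the limma test given below, against 37.9% of all genes. Summed endothelial markers ran from 61.8 to 116 CPM in m2cafpos and from 166 to 578 CPM in the other populations. Much of the icaf sum was 1 gene, Tek, at 126, 211 and 159 CPM in mice 27, 30 and 31, against a mean of 12.8 in m2cafpos. Of the 10 endothelial genes 1 was called higher and 1 lower in icaf than in m2cafpos (15% and 8.86% of all genes), in the limma test given below. Dendritic markers ran from 7.41 to 35.7 CPM in all, and 12 of 12 lymphocyte and NK cell genes had a mean under 1 CPM. No gene of these lists was at 0 in every library. CPM also depends on how much of a library a few genes take. When median-of-ratios size factors were used, the log2 differences of all genes each moved. The median of these shifts was 0.39 for icaf minus vcaf, 0.26 for m2cafneg minus vcaf and 0.52 for m2cafpos minus vcaf. It was -0.26 for m2cafneg minus m2cafpos, 0.13 for icaf minus m2cafneg and -0.13 for icaf minus m2cafpos. Differences are therefore given on CPM and, where it matters, with that scaling.

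The test across populations was limma on log2(CPM + 1) over the 15456 genes that reached 1 CPM in 3 or more libraries, among them all 10 class I genes, with p-values adjusted over all those genes. Across the 4 populations 9 of the 10 genes passed the F test (adjusted p under 0.05), all but Tap1, against 73% of all genes tested. Per kb of annotated exon, H2-D1 was the most abundant of the 10, with population means of 976 to 1619 CPM per kb, followed by B2m at 505 to 772 CPM per kb. H2-K1 had 130 to 175 and Tapbp 82.4 to 171 CPM per kb, H2-T23 19.5 to 34.2 and Tap2 18.5 to 26.1. Psmb8, Tap1 and Psmb9 lay at 9.09 to 14.6, 6.18 to 8.09 and 2.71 to 4.69 CPM per kb, and Nlrc5 at 0.0597 to 0.315. H2-D1, B2m and H2-K1 were thus more abundant per length than the transporter and the inducible proteasome subunits in every population. FVB mice carry the H-2q haplotype, while mm10 is a C57BL/6 genome of the H-2b haplotype, so the level of a polymorphic heavy chain also depends on how its reads matched that genome and its near copies. That dependence was not tested, and levels of H2-K1, H2-D1 and H2-T23 against other genes are uncertain for that reason.

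**Figure D1:**
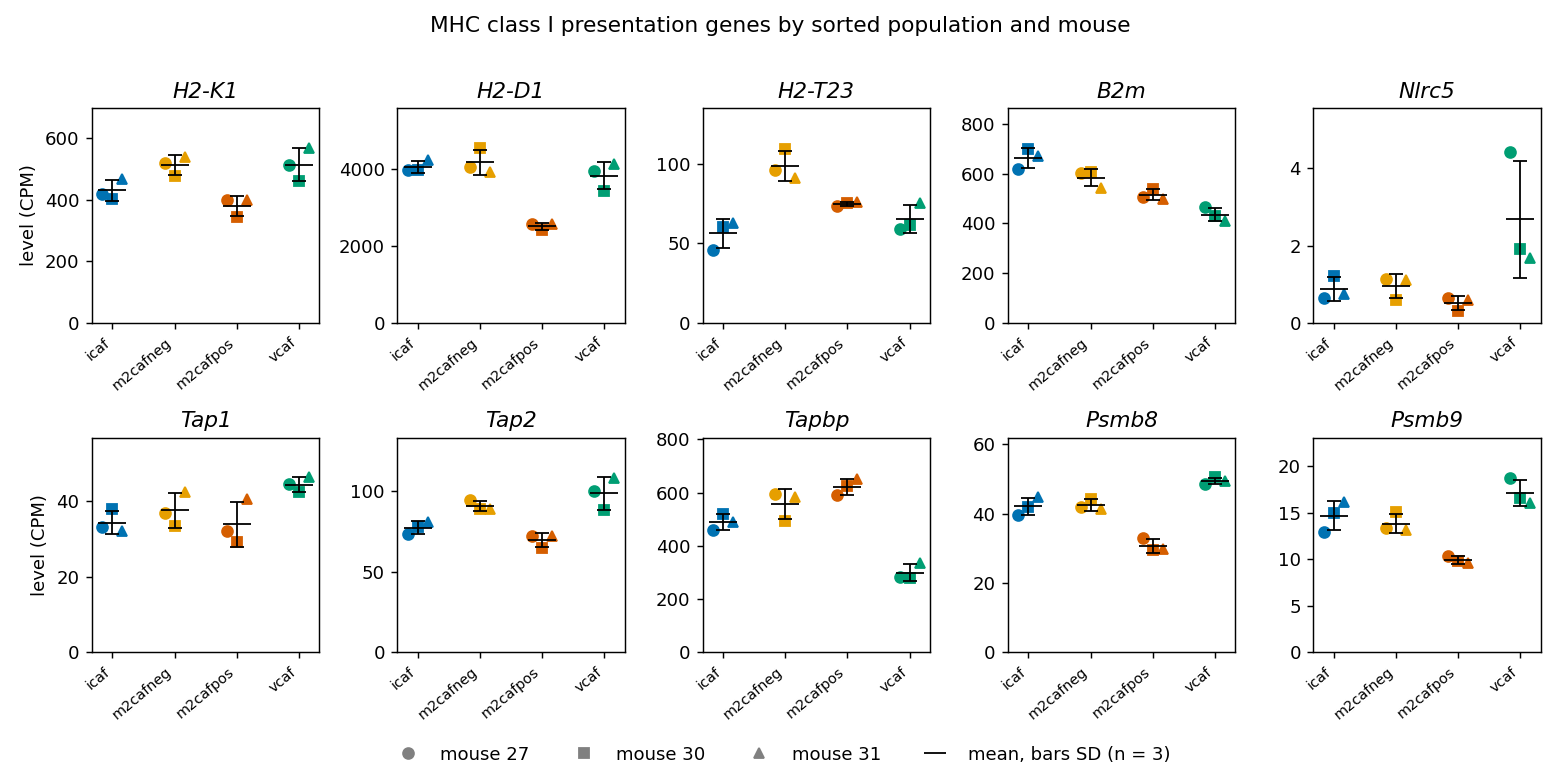
CPM of each of the 10 class I genes in each library (vertical axis, starting at 0, own scale for each gene) for the 4 sorted populations (horizontal axis); marker shape gives the mouse, the line the mean and the bars the SD of 3 libraries. Tapbp and B2m were lowest in vcaf, H2-T23 was highest in m2cafneg, and on CPM H2-K1, H2-D1, Psmb8 and Psmb9 were lowest in m2cafpos (with median-of-ratios scaling H2-K1 was higher there than in vcaf by 0.12, not called).

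H2-D1, one of the classical heavy chains that present peptide to CD8 T cells, was lower in m2cafpos than in every other population on CPM. In icaf it was at 3976, 3972 and 4236 CPM in mice 27, 30 and 31, in m2cafneg at 4049, 4546 and 3933, in m2cafpos at 2566, 2411 and 2575, and in vcaf at 3941, 3433 and 4124 CPM. The 3 m2cafpos libraries lay below all 9 others, and the other populations overlapped. The mean was 2518 ± 92.0 CPM in m2cafpos (SD, n = 3) and 4061 ± 151 in icaf, 4176 ± 326 in m2cafneg and 3833 ± 358 in vcaf. The icaf level was higher than that of m2cafpos by 0.69 (SE 0.14, limma adjusted p = 0.00350) on the log2 scale, and this call was kept under all 23 alternative settings, with values from 0.54 to 0.71. The difference of m2cafneg from m2cafpos was 0.73 (adjusted p = 0.00487), which became 0.45 (adjusted p = 0.0667) with median-of-ratios scaling, and that of vcaf from m2cafpos was 0.60 (adjusted p = 0.00255), which became 0.04 (adjusted p = 0.841). With that scaling H2-D1 was instead higher in icaf than in vcaf, by 0.51 (adjusted p = 0.0161), where CPM gave 0.09 (adjusted p = 0.615).

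H2-K1, the other classical heavy chain counted, had a flatter pattern. Its libraries ran from 404 to 469 CPM in icaf, from 476 to 540 in m2cafneg, from 344 to 401 in m2cafpos and from 462 to 570 in vcaf, and m2cafpos was lowest within each of the 3 mice. The means were 431 ± 34.2, 512 ± 32.6, 381 ± 32.4 and 515 ± 54.1 CPM (SD, n = 3). It was higher in m2cafneg than in m2cafpos by 0.43 (SE 0.11, adjusted p = 0.0170), a call lost without the m2cafneg library of mouse 31 or the m2cafpos library of mouse 30 (adjusted p 0.0611 and 0.0682) and with median-of-ratios scaling (0.15, adjusted p = 0.379). Likewise, the vcaf level exceeded that of m2cafpos by 0.43 (adjusted p = 0.00468), but on median-of-ratios scaling the sign turned and vcaf was lower by 0.12 (adjusted p = 0.375). With the mouse as a block, m2cafneg and vcaf were also higher than icaf (adjusted p = 0.0384 and 0.0203, against 0.113 and 0.0667 without the block), and neither held with median-of-ratios scaling. In m2cafneg H2-K1 was at 0.995 times its vcaf level, with a 95% interval of the log2 difference from -0.25 to 0.24.

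H2-T23 encodes the heavy chain of Qa-1, a class I molecule of little polymorphism that binds the CD94-NKG2A inhibitory receptor of NK and CD8 T cells. It was highest in m2cafneg and lowest in icaf in each of the 3 mice. The values were 45.8, 60.3 and 62.7 CPM in icaf, 96.0, 109 and 91.1 in m2cafneg, 73.5, 75.1 and 76.1 in m2cafpos, and 58.7, 61.4 and 75.3 in vcaf. The m2cafneg libraries lay above all the others, the m2cafpos libraries overlapped only with vcaf, and vcaf also overlapped with icaf. The means were 56.3 ± 9.12, 98.8 ± 9.43, 74.9 ± 1.31 and 65.1 ± 8.88 CPM in icaf, m2cafneg, m2cafpos and vcaf (SD, n = 3). Icaf was 0.81 lower than m2cafneg (log2 difference -0.81, SE 0.13, adjusted p = 0.000826; -0.67 and adjusted p = 0.00485 with median-of-ratios scaling). The m2cafneg level exceeded that of vcaf by 0.60 (SE 0.13, adjusted p = 0.00429; 0.87 with median-of-ratios scaling), and this call held under all 23 alternatives. Icaf was also below m2cafpos by a difference of -0.42 (adjusted p = 0.0375; -0.56 with median-of-ratios scaling), which lost its call when any of 5 single libraries, icaf of mouse 27 or 30 or any m2cafpos library, was left out (adjusted p 0.0519 to 0.159).

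The steps between neighbours in the H2-T23 order depended on the scaling. The step from m2cafneg to m2cafpos, 0.39 (adjusted p = 0.0483), became 0.11 (adjusted p = 0.639) with median-of-ratios scaling and was lost on leaving out any of 9 of the 12 libraries (adjusted p 0.0515 to 0.142). The step from m2cafpos to vcaf, 0.21 (adjusted p = 0.182), became 0.76 (adjusted p = 0.00102) with that scaling. The H2-T23 difference between icaf and m2cafneg runs alongside the epithelial and macrophage markers given above. With the summed epithelial markers as a covariate it was -0.65 (adjusted p = 0.114), and with the macrophage markers -0.37 (adjusted p = 0.649). Of all genes, 681 and 84 were called in that comparison with these covariates, in place of 4594. The m2cafneg to vcaf difference of H2-T23 was 0.62 and 0.67 with these covariates (adjusted p = 0.00352 and 0.00193). H2-T-ps, an annotated pseudogene of the same region picked after its values were seen, was at 17.1 to 40.3 CPM and had the H2-T23 pattern most closely of the genes outside the 10 with a mean of at least 10 CPM (r = 0.96 over the 12 libraries). Its share of the H2-T23 level was 0.368 to 0.446 in every library, and how reads common to both were divided is not given in the sources used here.

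B2m encodes beta-2 microglobulin, the light chain of every class I molecule named here. On CPM its order was the same in all 3 mice, falling from icaf through m2cafneg and m2cafpos to vcaf. The 3 mice gave 619.8, 699 and 672 CPM in icaf, 602, 605 and 544 in m2cafneg, 507, 540.1 and 498 in m2cafpos, and 464, 428 and 411 in vcaf. No population overlapped with the next one in that order. The step from m2cafneg to m2cafpos was not called (0.18, limma adjusted p = 0.188). With median-of-ratios scaling its sign turned, and m2cafneg minus m2cafpos was -0.10 (adjusted p = 0.575). The means were 664 ± 40.4, 584 ± 34.5, 515 ± 22.3 and 435 ± 27.0 CPM (SD, n = 3), and with bulk libraries of sorted cells, fewer cells of a type and less RNA per cell cannot be told apart in such a level. Against vcaf, B2m was higher by 0.61 in icaf (SE 0.10, adjusted p = 0.000201), 0.43 in m2cafneg (adjusted p = 0.00489) and 0.25 in m2cafpos (adjusted p = 0.0395). Median-of-ratios scaling enlarged these to 1.03, 0.70 and 0.80 (adjusted p = 7.85e-06, 0.000339 and 7.00e-05). The m2cafneg difference was called under all 23 alternatives. The m2cafpos difference lost its call without any of 6 libraries, icaf 31, all m2cafpos libraries and vcaf 30 or 31 (adjusted p 0.0514 to 0.123). With the epithelial covariate the icaf difference was 0.47 (adjusted p = 0.0695) and with the macrophage covariate 0.45 (adjusted p = 0.269). Icaf also exceeded m2cafpos by 0.36 (adjusted p = 0.0159), but not with median-of-ratios scaling (0.23, adjusted p = 0.175) or without icaf 30, m2cafpos 27 or m2cafpos 31 (adjusted p 0.0543 to 0.0669).

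Tapbp, tapasin, had the widest called range of the 10 genes apart from Nlrc5, and was lowest in vcaf in each mouse. Its values were 458, 520.4 and 489 CPM in icaf, 596, 494 and 581 in m2cafneg, 590.4, 626 and 649.6 in m2cafpos, and 282, 279 and 335 in vcaf. All 3 vcaf libraries were below all 9 others. The means were 489 ± 31.4, 557 ± 55.1, 622 ± 29.8 and 299 ± 31.5 CPM (SD, n = 3), so m2cafpos, the lowest population for 7 of the other genes on CPM, was the highest for Tapbp. It exceeded vcaf by 0.71 in icaf (SE 0.11, adjusted p = 0.000175), 0.90 in m2cafneg (adjusted p = 5.08e-05) and 1.06 in m2cafpos (adjusted p = 7.43e-06), 2.08-fold in the last case. With median-of-ratios scaling the 3 differences were 1.13, 1.17 and 1.62. The m2cafneg and m2cafpos differences were called under all 23 alternatives. The icaf difference was 0.90 with the epithelial covariate (adjusted p = 0.00563) and 0.94 with the macrophage covariate (adjusted p = 0.0540). Icaf was below m2cafpos by a difference of -0.35 (adjusted p = 0.0392; -0.48 and adjusted p = 0.00806 with median-of-ratios scaling), a call lost without any single icaf or m2cafpos library (adjusted p 0.0547 to 0.134).

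Tap1 and Tap2 encode the subunits of the peptide transporter. Tap1 ran from 32.1 to 37.8 CPM in icaf, 33.3 to 42.4 in m2cafneg, 29.1 to 40.5 in m2cafpos and 42.3 to 46.3 in vcaf. Tap2 ran from 73.3 to 80.9, 88.8 to 94.2, 64.9 to 72.4 and 88.0 to 108 CPM in the same order. On CPM, Tap1 was lower in icaf and m2cafpos than in vcaf (-0.36, adjusted p = 0.0340, and -0.39, adjusted p = 0.0216), and Tap2 was too (-0.34, adjusted p = 0.00926, and -0.49, adjusted p = 0.000874). Median-of-ratios scaling turned the sign of all 4 of these transporter differences, to 0.05 and 0.15 for Tap1 and 0.08 and 0.07 for Tap2, with adjusted p from 0.355 to 0.789. The Tap1 calls were lost without icaf 27, icaf 31, vcaf 27 or vcaf 31 in the first case (adjusted p 0.0727 to 0.102) and m2cafpos 27, m2cafpos 30 or vcaf 31 in the second (adjusted p 0.0585 to 0.0977). Tap2 was also higher in m2cafneg than in m2cafpos, by 0.37 (adjusted p = 0.0168), but by 0.10 with median-of-ratios scaling (adjusted p = 0.558) and without a call when m2cafpos 30 was left out (adjusted p = 0.0655). For Tap1 the icaf to m2cafpos difference was 0.03 with a 95% interval from -0.27 to 0.32.

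Psmb8 and Psmb9 encode catalytic subunits that replace the constitutive Psmb5 and Psmb6 in the immunoproteasome. Psmb8 was at 39.7, 41.8 and 44.8 CPM in icaf, 41.8, 44.3 and 41.2 in m2cafneg, 33.0, 29.5 and 29.7 in m2cafpos, and 48.5, 50.4 and 49.3 in vcaf. The m2cafpos libraries lay below, and the vcaf libraries above, all others. It was higher in icaf than in m2cafpos by 0.44 (SE 0.09, adjusted p = 0.00399), called under all 23 alternatives with 0.31 to 0.49. Psmb8 was also above m2cafpos in m2cafneg (0.46, adjusted p = 0.00589) and in vcaf (0.67, adjusted p = 6.53e-05), but with median-of-ratios scaling these were 0.18 (adjusted p = 0.227) and 0.13 (adjusted p = 0.323). The icaf minus vcaf difference, -0.23 (adjusted p = 0.0498), turned to 0.18 with that scaling, was not called with the mouse as a block (adjusted p = 0.0628), and lost its call without any of 11 of the 12 libraries, all but icaf 31 (adjusted p 0.0541 to 0.151).

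Psmb9 had lower levels, at 13.0 to 16.1 CPM in icaf, 13.2 to 15.1 in m2cafneg, 9.64 to 10.4 in m2cafpos and 16.1 to 18.8 in vcaf. The m2cafpos libraries were again below all 9 others, while the vcaf and icaf libraries overlapped. Psmb9 was higher than in m2cafpos by 0.52 in icaf (SE 0.13, adjusted p = 0.0115), by 0.44 in m2cafneg (adjusted p = 0.0275) and by 0.73 in vcaf (adjusted p = 0.000392). With median-of-ratios scaling the values were 0.40 (adjusted p = 0.0543), 0.18 (adjusted p = 0.376) and 0.21 (adjusted p = 0.220). The m2cafneg call was also lost without m2cafneg 30, m2cafneg 31 or any m2cafpos library (adjusted p 0.0518 to 0.0820).

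Nlrc5 encodes the transactivator that acts on class I promoters, and it was the rarest of the 10 transcripts, with 16 to 221 reads per library. The levels were 0.646, 1.22 and 0.752 CPM in icaf, 1.13, 0.585 and 1.12 in m2cafneg, 0.632, 0.297 and 0.592 in m2cafpos, and 4.42, 1.92 and 1.69 in vcaf. Vcaf was highest and m2cafpos lowest in each of the 3 mice, and no vcaf library overlapped with the others. The vcaf mean was 2.68 ± 1.52 CPM, with mouse 27 well above the other 2, and the means elsewhere were 0.872 ± 0.305 (icaf), 0.946 ± 0.313 (m2cafneg) and 0.507 ± 0.183 CPM (m2cafpos, SD, n = 3 each). On the log2(CPM + 1) scale, which understates changes at such levels, the differences from vcaf were -0.91 for icaf (SE 0.26, adjusted p = 0.00861), -0.86 for m2cafneg (adjusted p = 0.0207) and -1.22 for m2cafpos (adjusted p = 0.00123). Without vcaf 27 they were -0.59, -0.54 and -0.90, and the m2cafneg call was lost (adjusted p = 0.0728), as it was without m2cafneg 30 (adjusted p = 0.0771). With median-of-ratios scaling they were -0.64 (adjusted p = 0.0461), -0.66 (adjusted p = 0.0702) and -0.92 (adjusted p = 0.00868), and edgeR on recovered reads gave adjusted p = 0.0598 for icaf. Macrophage markers were more abundant in vcaf than in icaf and m2cafpos. With them as a covariate the Nlrc5 differences were -1.75 (adjusted p = 0.0969), -0.97 (adjusted p = 0.0125) and -1.96 (adjusted p = 0.0324) for icaf, m2cafneg and m2cafpos.

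Counted by comparison, between 1 and 9 of the 10 genes were called, and whether they were called more or less often than genes at large was not tested. These 6 comparisons share libraries, and none is independent of the rest. In icaf minus m2cafneg 1 gene, H2-T23, was called, and it was lower in icaf, against 29.7% of all genes in either direction, 8.77% higher and 20.9% lower. In icaf minus m2cafpos 6 were called, 4 higher in icaf (H2-D1, B2m, Psmb8 and Psmb9) and 2 lower (H2-T23 and Tapbp), against 23.9% of all genes (15% higher and 8.86% lower), and the median log2 difference was 0.24 for the 10 genes and 0.11 for all. In icaf minus vcaf 2 were higher (B2m and Tapbp) and 4 lower (Tap1, Tap2, Psmb8 and Nlrc5), against 59.9% (13.9% higher and 46.1% lower). In m2cafneg minus m2cafpos 6 were higher (H2-K1, H2-D1, H2-T23, Tap2, Psmb8 and Psmb9), against 26.1% called in either direction and 22.6% called higher and 3.51% lower, with medians of 0.38 and 0.23.

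Relative to vcaf, m2cafneg had 3 genes higher (H2-T23, B2m and Tapbp) and 1 lower (Nlrc5), against 37.9% (11.3% higher and 26.6% lower), and m2cafpos had 2 higher (B2m and Tapbp) and 7 lower (all others but H2-T23), against 67.9% (12.4% higher and 55.5% lower). The medians were -0.46 for the 10 genes and -0.51 for all. The scaling set much of this direction. Of all calls, the share higher in the first population went from 29.5% to 45.0% for icaf minus m2cafneg, 62.9% to 45.8% for icaf minus m2cafpos and 23.2% to 49.8% for icaf minus vcaf when median-of-ratios factors replaced CPM. For m2cafneg minus m2cafpos it went from 86.6% to 50.7%, for m2cafneg minus vcaf from 29.9% to 61.2% and for m2cafpos minus vcaf from 18.3% to 50.4%. Of the 60 gene-by-pair comparisons 32 were called on CPM and 14 of those were also called under both median-of-ratios and TMM scaling. They were H2-D1 and Psmb8 between icaf and m2cafpos, 3 comparisons of H2-T23, 3 of B2m against vcaf, all 4 of Tapbp, and Nlrc5 in icaf and in m2cafpos against vcaf. With median-of-ratios scaling 4 further comparisons were called: H2-D1 in icaf and H2-T23 in m2cafpos against vcaf, as given above, B2m higher in icaf than in m2cafneg (0.33, adjusted p = 0.0397) and Tapbp lower in m2cafneg than in m2cafpos (-0.44, adjusted p = 0.0208).

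**Figure D2:**
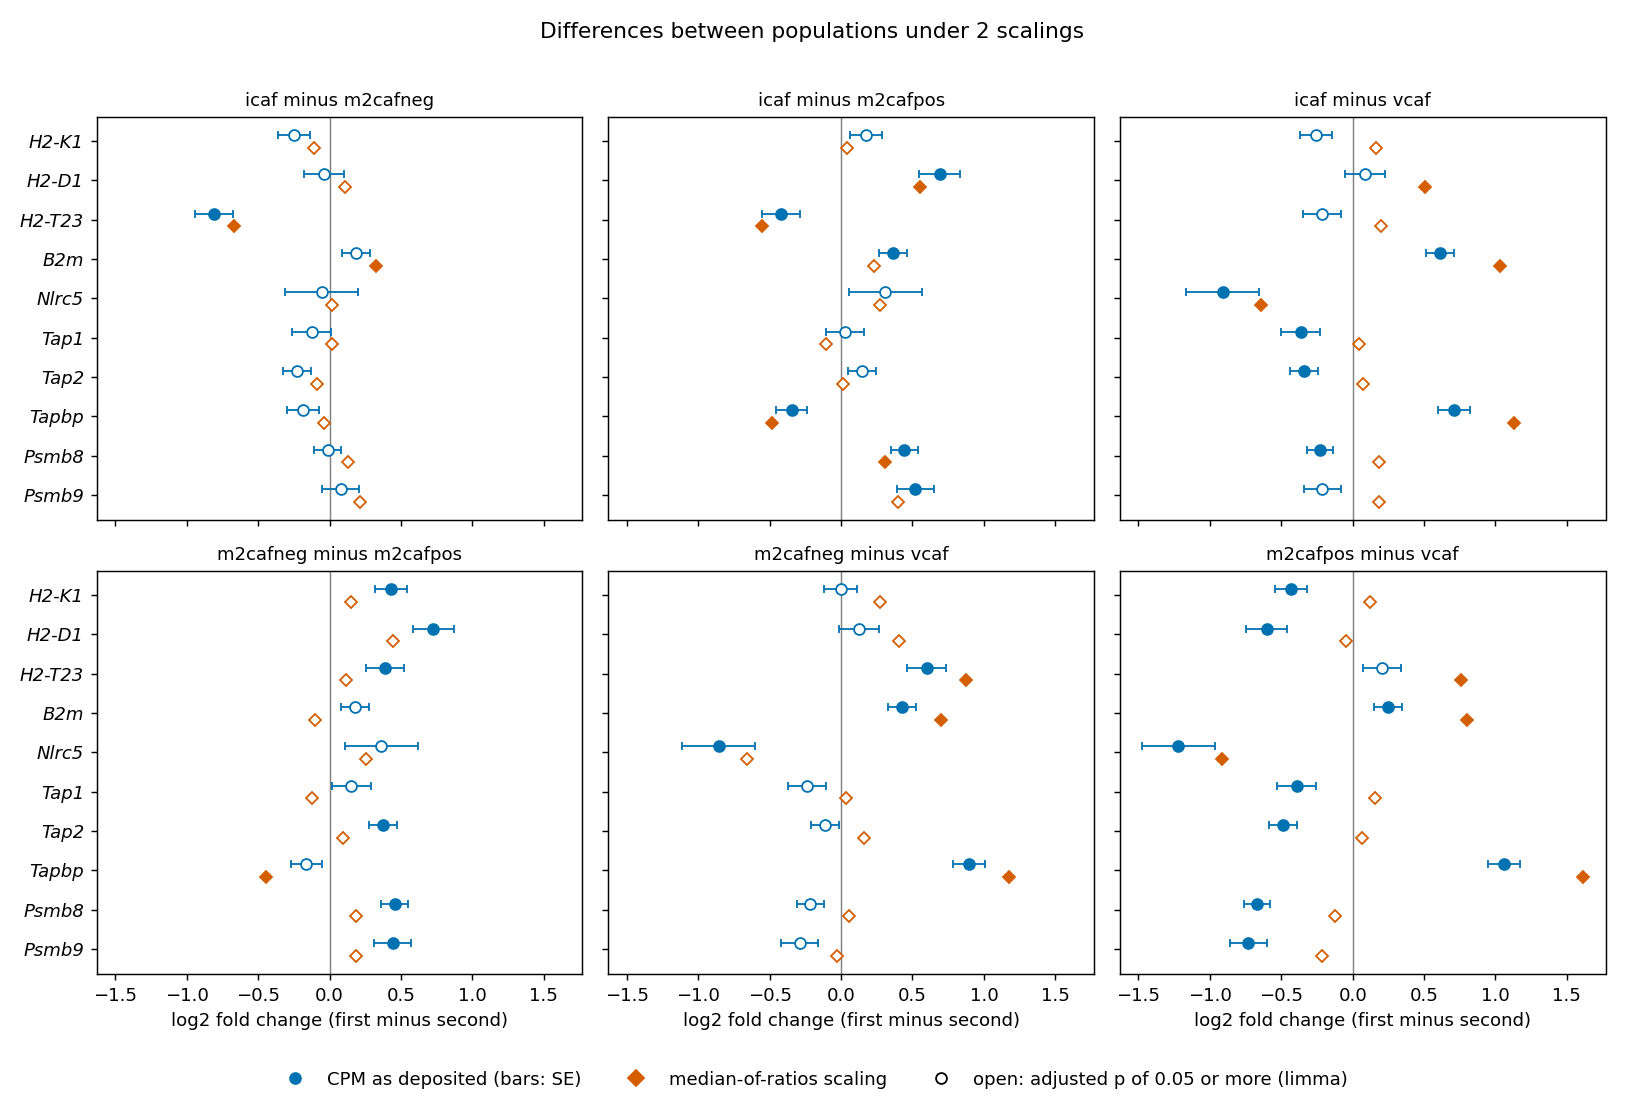
Log2 difference of each class I gene (rows) in each of the 6 pairs of populations, on CPM (circles, bars are the SE) and with median-of-ratios scaling (diamonds); filled points are under an adjusted p of 0.05 in limma. Tapbp and B2m stay above 0 against vcaf on both scales, whereas Tap1 and Tap2 cross from below 0 to above 0 for icaf and m2cafpos against vcaf.

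Ratios of 2 genes within a library do not depend on scaling between libraries, and 6 of them were compared across the 4 populations by a two-sided exact permutation test of the log2 ratio over all 369600 assignments, with adjustment over the 6. The ratio of the heavy chain H2-K1 to its light chain B2m was 0.677, 0.577 and 0.698 in icaf, 0.865, 0.787 and 0.992 in m2cafneg, 0.791, 0.636 and 0.800 in m2cafpos, and 1.10, 1.08 and 1.39 in vcaf. Every vcaf library was above every other library, and icaf and m2cafneg did not overlap. The means ran from 0.651 ± 0.0646 in icaf to 1.19 ± 0.171 in vcaf (SD, n = 3), a log2 range of 0.87 (exact p = 0.000844, adjusted p = 0.00506). The ratio of the heavy chains H2-D1 to H2-K1 ran from 9.03 to 9.84 in icaf, 7.29 to 9.54 in m2cafneg, 6.40 to 7.02 in m2cafpos and 7.23 to 7.69 in vcaf. The m2cafpos libraries were lowest, and icaf overlapped only with m2cafneg. Its log2 range was 0.51 (exact p = 0.00500, adjusted p = 0.0150), and the call was lost without icaf 30, icaf 31, m2cafpos 27 or m2cafpos 31 (exact adjusted p 0.0565 to 0.0678).

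The inducible and constitutive proteasome subunits showed no called difference in ratio. Psmb8 to Psmb5 averaged 0.713 ± 0.133 in icaf, 0.785 ± 0.0923 in m2cafneg, 0.543 ± 0.0422 in m2cafpos and 0.706 ± 0.0552 in vcaf (SD, n = 3, exact permutation adjusted p = 0.0955). Leaving out icaf 27 brought its adjusted p to 0.0271. Psmb9 to Psmb6 averaged 0.0627, 0.0552, 0.0429 and 0.0496 (exact adjusted p = 0.462). Psmb10 to Psmb7 averaged 3.14, 2.66, 2.42 and 2.84 (exact adjusted p = 0.466). Although Tap1 and Tap2 are partners in 1 transporter, their ratio was 0.415 to 0.483 on average in the 4 populations (exact adjusted p = 0.466). With populations permuted within mice, the smallest p possible was 0.00174, and the calls for the 6 ratios were the same.

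**Figure D3:**
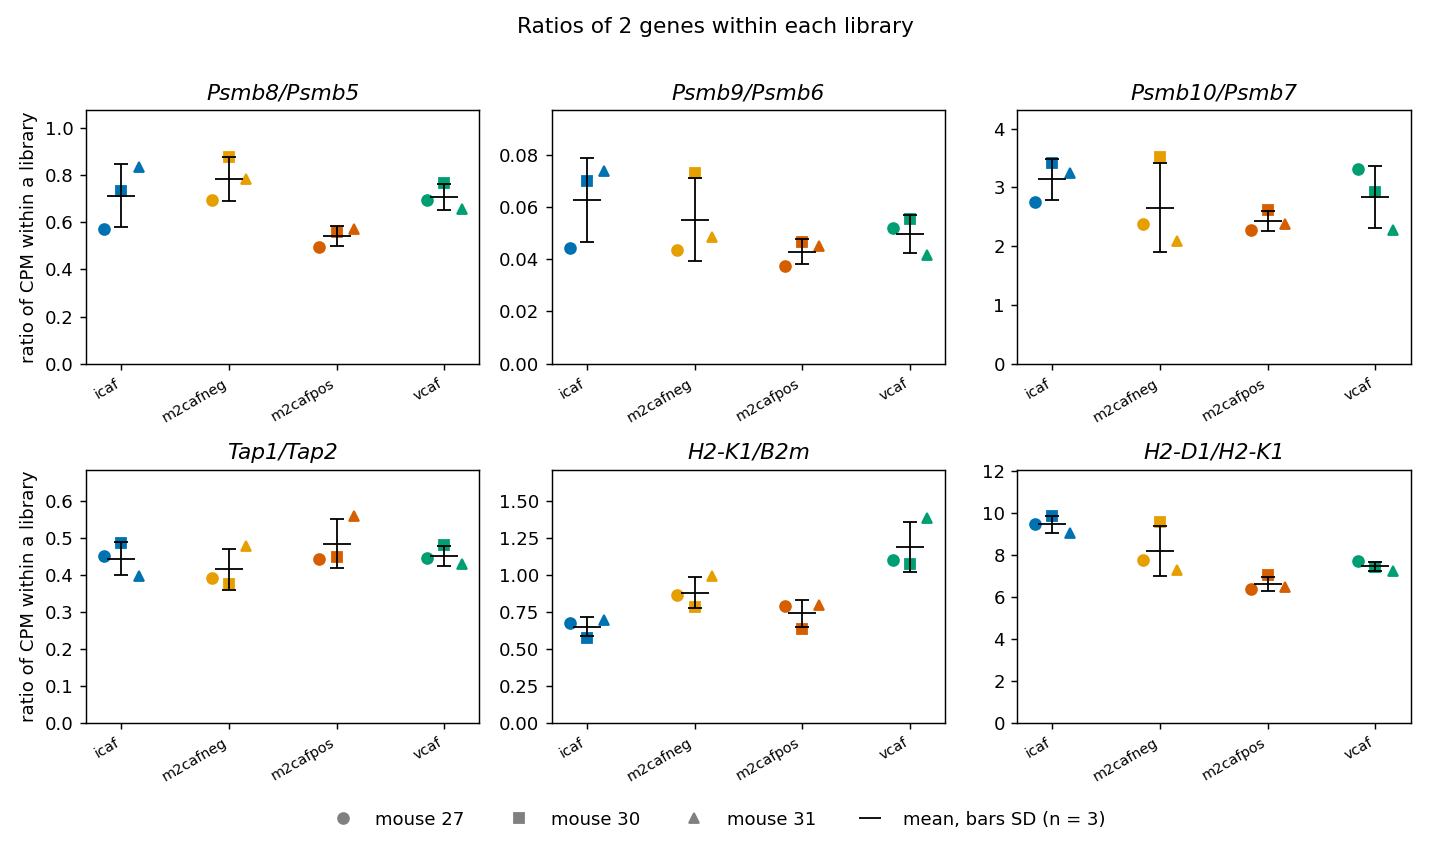
Ratio of the CPM of 2 genes within each library (vertical axis, starting at 0) for the 4 populations (horizontal axis), with the mean and SD of 3 libraries; marker shape gives the mouse. The H2-K1 to B2m ratio lies above 1 in the 3 vcaf libraries and below 1 in the other 9, and the Tap1 to Tap2 ratios overlap in all populations.

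The genes that act beside the 10 were counted from fixed lists. Of 10 genes for peptide loading and trimming in the endoplasmic reticulum, 5 were higher in icaf than in vcaf, 4 in m2cafneg and 3 in m2cafpos, where 2 were lower, and with median-of-ratios scaling 10, 7 and 9 were higher. Of all genes, 13.9%, 11.3% and 12.4% were higher in these comparisons and 46.1%, 26.6% and 55.5% lower. With median-of-ratios scaling 3745, 2406 and 3593 of all 15456 genes were higher. Pdia3, the ERp57 component of the loading complex, averaged 1830 ± 203, 1845 ± 58.3, 1881 ± 155 and 1235 ± 141 CPM in icaf, m2cafneg, m2cafpos and vcaf (SD, n = 3). Its differences from vcaf of 0.57, 0.59 and 0.61 (adjusted p = 0.00301, 0.00499 and 0.00162) and those of Calr, the chaperone calreticulin, of 0.60, 0.48 and 0.57 (adjusted p = 0.00386, 0.0221 and 0.00463) had the direction seen for Tapbp. Sec61a1, a channel subunit, averaged 430 CPM in icaf and 305 in vcaf, and Tapbpl, a peptide editor related to tapasin, 32.9 and 25.6 CPM.

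The 3 inducible partners of Psmb8 and Psmb9 (Psmb10, Psme1 and Psme2) were all higher in icaf than in m2cafpos, also with median-of-ratios scaling. Of all genes 15% were higher in that comparison, and 1507 of 15456 with that scaling. Psmb10, the remaining immunoproteasome catalytic subunit, averaged 92.6 ± 4.42, 72.1 ± 4.58, 60.5 ± 1.80 and 106 ± 7.90 CPM in icaf, m2cafneg, m2cafpos and vcaf (SD, n = 3). Psme1 and Psme2 encode the activator that widens the proteasome gate, and they exceeded m2cafpos by 0.67 and 0.54 in icaf (adjusted p = 0.000357 and 0.00952). Of 14 constitutive subunits of the core particle 2 were higher in icaf than in m2cafpos and 12 were not called, and with median-of-ratios scaling both calls were lost. This count stands near the 15% of all genes higher in that comparison. Psmb5, Psmb6 and Psmb7 were at 57.0, 234 and 25.1 CPM in m2cafpos against 60.1, 242 and 29.7 in icaf and 70.2, 349 and 37.9 in vcaf. Of the 5 tested cytosolic peptidases, which trim or destroy peptides, all 5 were lower in m2cafpos than in vcaf, and with median-of-ratios scaling these calls were lost. Of all genes 55.5% were lower in that comparison, and 3542 of 15456 with that scaling. Blmh, for example, averaged 81.8 CPM in m2cafpos and 135 in vcaf.

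Other heavy chains were split. Of 16 listed, 15 were found and 12 tested, and against vcaf 2 were higher and 2 lower in icaf, 2 and 1 in m2cafneg, and 4 and 5 in m2cafpos, with 7 and 1, 5 and 1, and 5 and 1 after median-of-ratios scaling. Of all genes, 13.9%, 11.3% and 12.4% were higher and 46.1%, 26.6% and 55.5% lower in these comparisons. After median-of-ratios scaling 3745, 2406 and 3593 of all 15456 genes were higher and 3775, 1525 and 3542 lower. H2-M9, a nonclassical gene best known from vomeronasal neurons, was at 78.9, 119 and 88.0 CPM in the 3 vcaf libraries and between 0 and 1.01 CPM in the other 9 (F test adjusted p = 4.21e-09). H2-M3, which presents formylated peptides, went the other way, at 46.9 ± 6.95 CPM in icaf, 31.7 ± 4.88 in m2cafneg, 29.5 ± 3.57 in m2cafpos and 12.1 ± 2.04 in vcaf (SD, n = 3). It exceeded vcaf by 1.88 in icaf (adjusted p = 1.50e-06), 1.32 in m2cafneg and 1.23 in m2cafpos. Of 4 tested class I-like genes, 3 were higher and 1 lower in icaf than in vcaf, 3 and 0 in m2cafneg, and 2 and 1 in m2cafpos. The shares of all genes are those given above for the heavy chains. Fcgrt, the neonatal Fc receptor chain that also pairs with B2m, averaged 762 ± 139, 738 ± 186, 635 ± 82.2 and 371 ± 63.9 CPM (SD, n = 3), with differences from vcaf of 1.04, 0.98 and 0.78 (adjusted p = 0.000716, 0.00221 and 0.00375). Hfe, a partner of B2m in iron sensing, was at 20.2, 24.4, 11.1 and 10.0 CPM in the same order. Cd1d1 was at 8.80, 17.3, 8.80 and 16.9 CPM, and Mr1 at 21.5, 22.3, 25.1 and 15.5 CPM.

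Of 16 regulators of class I genes, icaf had 10 lower and 1 higher than vcaf, m2cafneg 5 and 1, and m2cafpos 11 and 1. Of all genes, 46.1%, 26.6% and 55.5% were lower and 13.9%, 11.3% and 12.4% higher in these comparisons, so the counts of regulators stand near that background. With median-of-ratios scaling the regulators lower and higher were 4 and 2, 1 and 1, and 3 and 1. Irf1, which binds interferon-stimulated response elements, averaged 48.5 ± 5.62 CPM in icaf, 101 ± 3.46 in m2cafneg, 56.0 ± 7.28 in m2cafpos and 128 ± 38.8 in vcaf (SD, n = 3). It was lower in icaf than in m2cafneg by a difference of -1.04 (adjusted p = 0.00113), and the epithelial and macrophage markers differed there too. Irf8, a factor abundant in myeloid cells, was at 1.58, 6.28, 2.41 and 27.7 CPM, and its part in the Nlrc5 difference was not tested.

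Of 7 genes for interferon receptors and their kinases, 3 were higher and 3 lower in icaf than in vcaf, 1 and 2 in m2cafneg, and 2 and 4 in m2cafpos. With median-of-ratios scaling 3, 2 and 2 were higher and the calls of lower levels were lost. Of all genes, 13.9%, 11.3% and 12.4% were higher and 46.1%, 26.6% and 55.5% lower in these comparisons on CPM. Ifngr1, the ligand-binding chain of the interferon gamma receptor, averaged 436 ± 58.1 CPM in icaf, 516 ± 35.7 in m2cafneg, 276 ± 15.5 in m2cafpos and 152 ± 22.3 in vcaf (SD, n = 3), with differences from vcaf of 1.52, 1.77 and 0.87 (adjusted p = 8.64e-07, 3.63e-07 and 8.88e-05). The kinase Jak1 was highest in icaf, at 541 CPM against 281 to 342 elsewhere. Of 15 tested interferon-response genes 10 were higher in icaf than in m2cafpos and 9 higher and 1 lower in icaf than in vcaf (8, and 11 higher, with median-of-ratios scaling). Of all genes 15% were higher in icaf than in m2cafpos, and 13.9% higher and 46.1% lower than in vcaf, on CPM. The icaf library of mouse 30 stood apart in the interferon-response genes, which summed to 805 CPM there and to 427 and 528 CPM in icaf of mice 27 and 31. Without it, an alternative chosen after seeing the data, 7 were higher in icaf than in m2cafpos, and 6 higher and 1 lower than in vcaf. With the epithelial covariate 10 were higher in icaf than in m2cafpos and 1 higher than in vcaf, where 3638 of all genes were then called in place of 9265. Oas1a, an antiviral enzyme, was at 28.5, 56.5 and 30.4 CPM in icaf and averaged 10.2 to 11.1 CPM elsewhere, while of the 10 class I genes B2m alone had its highest CPM in icaf in all 3 mice.

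**Figure D4:**
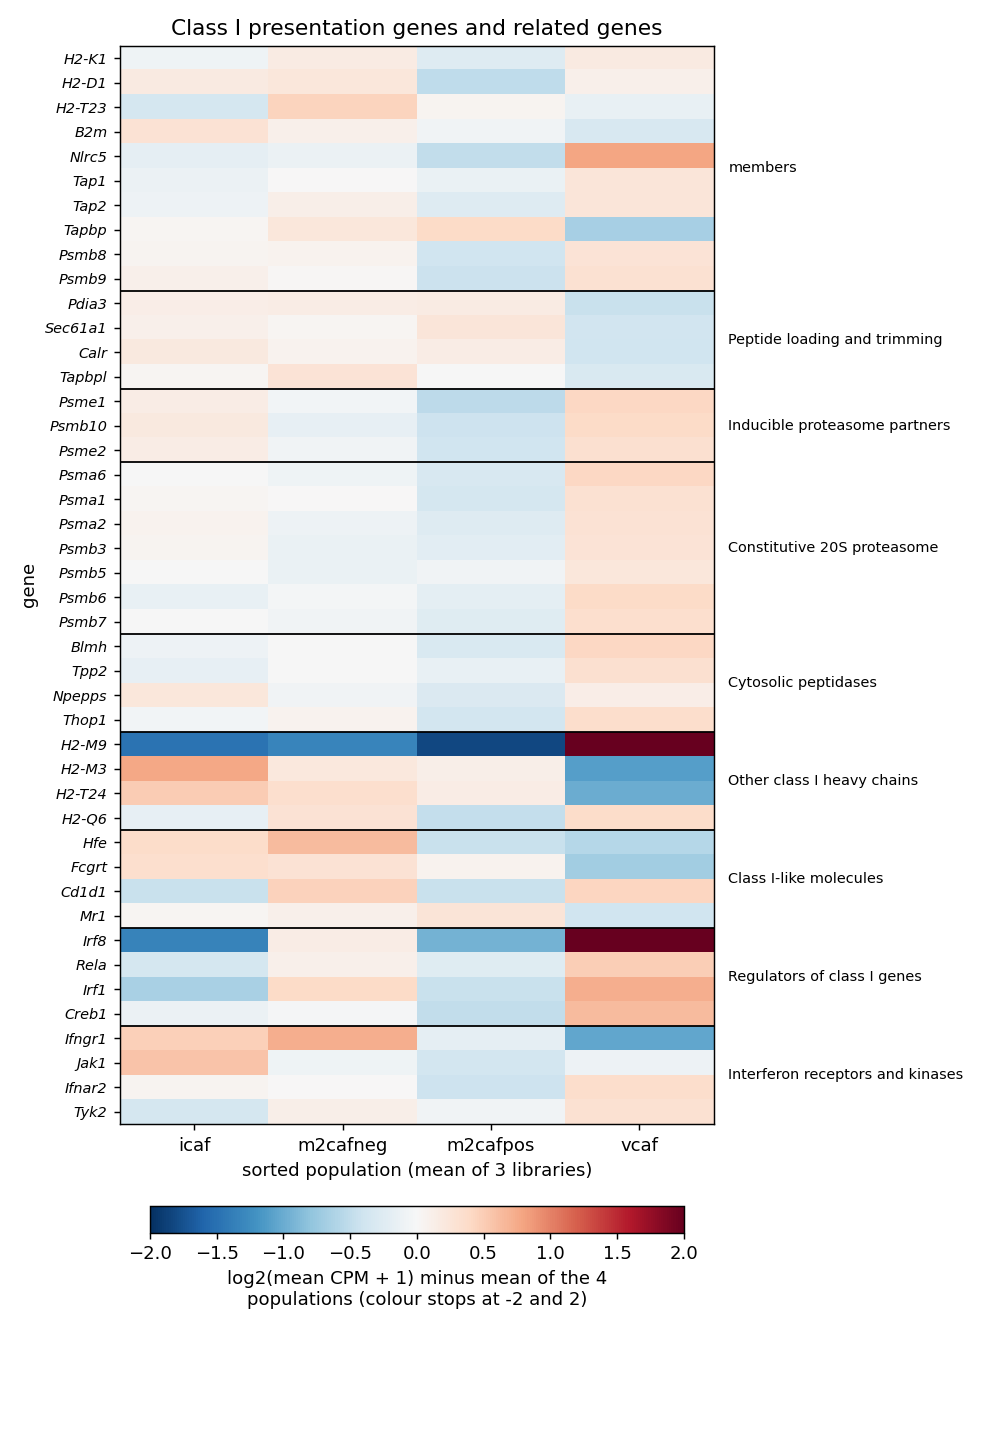
Mean expression of the 10 class I genes and of named genes of the related lists (rows) in the 4 populations (columns), as log2(mean CPM + 1) minus the mean over populations; red is above and blue below that mean. Tapbp, Pdia3 and Calr are lowest in vcaf, Psmb8, Psmb9, Psmb10 and Psme1 are lowest in m2cafpos, and H2-M9 and Irf8 are highest in vcaf.

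Across the 12 libraries the 10 genes did not follow a single profile. Over their 45 pairs the median Pearson r of log2(CPM + 1) was 0.30 and 27 pairs were above 0, and after subtracting population means the median r was 0.24. All points share the libraries and their scaling, and no p-value is given. Outside the 10, the genes closest in profile to H2-K1 were Shmt1 (r = 0.97), Rogdi (0.96) and Col9a1 (0.95). Closest to Tap1 were Lrpprc (0.90), Dis3l2 (0.90) and Zfp644 (0.90). For Psmb8 they were Agfg2, Kitl and Fdx1 (each 0.97), and for Nlrc5 Clasp1 (0.96) and Usp39 (0.95).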

How the data were processed

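RNA from 12 sorted libraries was sequenced on an Illumina NovaSeq, per the labels' protocols; bcl2fastq, DRAGEN and mm10 are named without versions in the submitters' processing notes. The deposited values are CPM, which the authors computed per gene; how multi-mapping reads and strand were handled is not given in the sources used here. Every CPM was a whole number of reads (100% within 0.001 reads), so reads were recovered for count tests. Of 55774 lines, 287 repeated an identifier with identical values and were used once. The library titled vacf of mouse 27 was read as vcaf, since its column bears that name.

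The main test was limma 3.58.1 (R 4.3.3) on log2(CPM + 1) with 12 libraries in 1 fit, trend, no covariate, and Benjamini-Hochberg adjustment over the 15456 genes that reached 1 CPM in 3 or more libraries. edgeR 4.0.16, DESeq2 1.42.0, TMM and median-of-ratios scaling, other pseudocounts and filters, epithelial and macrophage covariates, a mouse block and each library left out were alternatives. The fits were tested on simulated data. Replicates are separate mice, and the mouse number pairs libraries of 1 animal: deviations from population means of same-mouse libraries correlated with a median r of 0.29 (0.08 to 0.45, 18 pairs). The median of -0.15 between mice largely follows from subtracting means of 3 libraries, and is not a separate result. Ratios were tested by exact permutation in Python 3.11.15. Of other lists, up to 4 genes with the smallest F-test p, the constitutive proteasome subunits and Irf1 were named by rule; some genes the rules name are not reported here. The class I genes and lists were chosen with earlier results of these data known.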

Additional observations from a re-analysis of the deposited data

How the results depend on the processing

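Of the 32 called differences of single class I genes, 6 were called under all 23 alternatives: H2-D1 and Psmb8 in icaf minus m2cafpos, H2-T23, B2m and Tapbp in m2cafneg minus vcaf, and Tapbp in m2cafpos minus vcaf. The sign turned for 6 differences under median-of-ratios scaling, TMM scaling, edgeR and DESeq2, given in that order. These were Tap1 (0.047, 0.035, 0.038 and 0.047), Tap2 (0.075, 0.064, 0.061 and 0.069) and Psmb8 (0.18, 0.17, 0.18 and 0.19) in icaf minus vcaf, and H2-K1 (0.12, 0.10, 0.11 and 0.13), Tap1 (0.15, 0.13, 0.15 and 0.17) and Tap2 (0.065, 0.039, 0.046 and 0.068) in m2cafpos minus vcaf. Each of these alternatives changes the scaling of all genes between libraries, and the shifts given in the report are those of median-of-ratios scaling. Under the same 4 settings 5 genes were called across populations in place of 9, where 73% of all genes were called on CPM. In m2cafpos minus vcaf the 4 settings called 3 higher and 1 lower, in place of 2 higher and 7 lower. Of all 15456 genes they called 7135, 7164, 6913 and 7360 there, in place of 10492. In m2cafneg minus m2cafpos the 6 calls on CPM were all higher in m2cafneg. There median-of-ratios called 0 higher and 1 lower, Tapbp, and TMM, edgeR and DESeq2 each called 1 higher and 1 lower. The 4 settings called 2602, 2581, 2088 and 3133 of all genes there, in place of 4041. In icaf minus m2cafneg 1 higher and 1 lower were called in place of 1 lower with median-of-ratios, TMM and DESeq2. Of all genes, 4631, 4590 and 5038 were called there in place of 4594. In icaf minus vcaf edgeR called 3 higher and 0 lower in place of 2 higher and 4 lower, and 7297 of all genes in place of 9265.

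With the mouse as a replicate block 2 genes, H2-T23 and H2-K1, were called in icaf minus m2cafneg, and in icaf minus vcaf H2-K1 was gained and Psmb8 lost. Of all genes, 5387 and 9779 were called in these comparisons with the block, in place of 4594 and 9265. The block changed no other call of the 10 genes. With the epithelial covariate limma called 0 in icaf minus m2cafneg (1 at an unadjusted p under 0.05), 1 in icaf minus vcaf, 0 in m2cafneg minus m2cafpos (2 unadjusted) and 3 in m2cafpos minus vcaf. With the macrophage covariate it called 0 (0 unadjusted), 0 (2 unadjusted), 0 (1 unadjusted) and 2. Of all 15456 genes, 681, 3638, 342 and 5040 were called in these comparisons with the epithelial covariate. With the macrophage covariate they were 84, 1526, 2 and 2991. Without a covariate they were 4594, 9265, 4041 and 10492, so calls fell across all genes and not in the class I genes alone. Over these same comparisons edgeR without covariates called 1, 3, 2 and 4 class I genes, and 4245, 7297, 2088 and 6913 of all genes. A covariate that differs between populations shares its variation with them, and the cause of these changes was not tested.

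Leaving out 1 library at a time gave 9 to 10 genes called across populations, 1 to 1 in icaf minus m2cafneg, 3 to 6 in icaf minus m2cafpos (3 without icaf 30, m2cafpos 27 or m2cafpos 31), 4 to 6 in icaf minus vcaf, 2 to 6 in m2cafneg minus m2cafpos (2 without m2cafpos 30, 3 without m2cafneg 31), 3 to 4 in m2cafneg minus vcaf and 7 to 9 in m2cafpos minus vcaf. Of all 15456 genes, 3175 to 4773, 2655 to 3835 and 8185 to 9386 were then called in the 3 comparisons of icaf. The m2cafneg minus m2cafpos, m2cafneg minus vcaf and m2cafpos minus vcaf comparisons gave 2253 to 4218, 4421 to 6015 and 9543 to 10603. Of the 32 class I differences 20 lost no call. The log2 range of Psmb8 to Psmb5 was then 0.44 to 0.61 and that of H2-D1 to H2-K1 0.48 to 0.55. Depth limited Nlrc5 most, at 16 to 221 reads per library, where the other 9 genes had at least 423.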
